A study of Rattus norvegicus with 8 samples.

Results

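The microRNAs (miRNAs) miR-216a, miR-216b and miR-217 were followed across 8 arrays of rat pancreatic islet RNA, where they were read as a measure of exocrine content. The members were the non-control features named rno-miR-216a or rno-miR-216b, together with the products of the hairpin of rno-miR-217. On this array miR-216b is listed by arm, as rno-miR-216b-5p and rno-miR-216b-3p, and both were taken. The rule gave 5 miRNAs of the 677 on the array (miR-216a, miR-216b-5p, miR-216b-3p, miR-217 and miR-217*), measured by 15 probes of 1644 and 100 features of 13540. The other arm of the miR-216a hairpin, miR-216a*, lies outside the rule and is given beside them. Names below drop the species prefix, and an asterisk is the array's mark for the minor arm.

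The islets came from Sprague Dawley rats that the labels call controls, either 10 days old (P10, 4 arrays, sex not given) or 3 months old and male (adult, 4 arrays). The study asked how miRNAs differ between immature and mature islets. The labels speak of biological replicates but name no animals behind an array, so p-values measure the spread between these arrays, and they do not say how the islets were purified. From each sample 100 ng of total RNA was labelled with cyanine 3, and all 8 arrays lay on 1 slide and were read in 1 scan. P10 filled 1 column of the slide and adult the other, and age and column cannot be told apart.

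Pancreatic islets are small clusters of hormone-secreting cells, of which insulin-secreting beta cells are the most numerous, and they lie embedded in exocrine tissue. Acinar cells of that tissue make and secrete digestive enzymes. The miR-216a, miR-216b and miR-217 hairpins are encoded together in 1 genomic cluster and are enriched in acinar cells, and circulating miR-216a is used as a marker of acinar injury in rats. Like other miRNAs they lower the output of transcripts that pair with their seed, and miR-217 has been reported to act on the transcript of Sirt1, a deacetylase.

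In the RefSeq annotation of the rat assembly GRCr8 the hairpins lie on chromosome 14, plus strand, in the order Mir216b, Mir216a, Mir217, with 0 other miRNA hairpins between them. All 6 mature arms were matched by name, each unstarred name of the array being taken as the 5p arm. The 5p sequences are shown because those arms gave the signal below. They are written 5′ to 3′, with the seed (bases 2 to 8, which pair with a target) in capitals.
miR-216a-5p: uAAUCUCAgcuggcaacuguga
miR-216b-5p: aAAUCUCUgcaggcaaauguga
miR-217-5p: uACUGCAUcaggaacugacugg

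miR-216a-5p and miR-216b-5p had the same base at 18 of 22 positions. Counted from 1 at the 5′ end of miR-216a-5p, they differed by U1A, A8U, U11A and C17A, and of these A8U lies in the seed, so the seeds shared 6 of 7 bases. miR-217-5p is not a near relative by sequence: it matched miR-216a-5p at 6 of 22 positions and at 2 of 7 seed positions. None of the 3 seeds was found in another rat mature miRNA of the RefSeq table (0 for each). The array files give no probe sequences, and whether RNA of miR-216a binds the miR-216b-5p probes, or the reverse, was not tested.

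The opposite arms were at background. They are shown because they bear on which arm of each hairpin was measured.
miR-216a-3p: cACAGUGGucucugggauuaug
miR-216b-3p: cACACUUAcuuguagagauu
miR-217-3p: aUCAGUUCcuaaugcauugccu

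miR-216b-3p was well above background on 0 of 8 arrays, with background-subtracted intensities of its brightest probe between -3.71 and 1.48. The brightest probe of miR-217* likewise passed on 0 of 8 arrays, at -0.82 to 6.20, and that of miR-216a* on 0 of 8, at -2.81 to 1.75. For comparison, the negative control features of the 8 arrays had mean intensities of 4.80 to 7.33. These arms were therefore not detectable at this signal, and no difference between the ages is given for them. The 5p members were measurable, and 3 of the 5 members entered the test across miRNAs, which took the 238 miRNAs whose brightest probe passed the background call on 4 or more of the 8 arrays.

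Across all 3 measurable members the adult arrays lay close together, whereas the P10 arrays fell far apart. P10 replicates 1 and 2 had the highest levels of the 8 arrays, and P10 replicates 3 and 4 the lowest. Levels are given below as log2 signal of the brightest probe, scaled so that 0 is the 75th percentile of the 278 probes well above background on every array. They were raised to a common floor of -5.51, and values at the floor have no order among themselves. In bulk RNA, fewer acinar cells and less of a miRNA per acinar cell cannot be told apart.

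miR-216a, the most used acinar marker of the set, had scaled log2 levels of -0.60, -0.91 and -4.77 on P10 replicates 1, 2 and 3, and was at the floor and not well above background on P10 replicate 4. On the adult arrays, replicates 1 to 4, it stood at -1.74, -2.40, -2.77 and -2.43. All 4 adult values thus lay between the high and the low pair of P10 arrays. After scaling, the P10 arrays spanned at least 30.1-fold, with replicate 4 counted at the floor, against 2.05-fold for the adult arrays. Before scaling, the intensities of the same probe spanned 11.97-fold in P10 and 1.69-fold in adult, with replicate 4 again not well above background. The group means were -2.94 ± 2.55 (SD, n = 4) for P10 and -2.34 ± 0.43 (SD, n = 4) for adult.

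miR-216b-5p, whose seed differs from that of miR-216a by 1 base, was well above background on P10 replicates 1 and 2, at -2.49 and -2.57. It was at the floor on P10 replicates 3 and 4, although the scanner software still listed it as detected on replicate 3. Adult replicates 1 to 4 gave -4.0, -4.61, -4.81 and -4.53. The adult values again lay within the P10 range, all of them below P10 replicates 1 and 2. Means were -4.02 ± 1.72 (SD, n = 4) for P10 and -4.49 ± 0.35 (SD, n = 4) for adult.

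miR-217 had scaled log2 levels of -3.04 and -3.33 on P10 replicates 1 and 2 and lay at the floor on replicates 3 and 4, where it was also not detected by the scanner software. On adult replicates 1 to 4 it was at -3.35, -3.82, -4.36 and -3.81. P10 replicate 2 and adult replicate 1 were almost level, so the high P10 pair stood less far above the adult arrays than it did for the other 2 members. The means were -4.35 ± 1.34 (SD, n = 4) in P10 and -3.84 ± 0.42 (SD, n = 4) in adult.

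**Figure D1:**
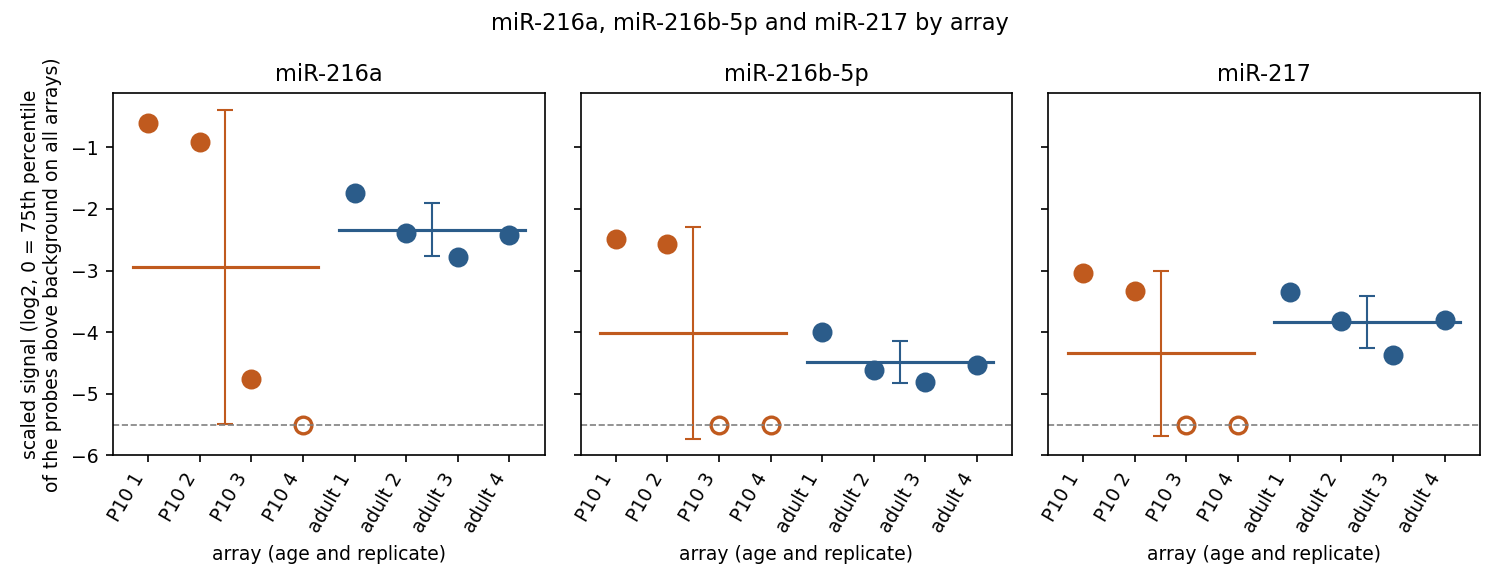
Scaled log2 signal (vertical axis) of miR-216a, miR-216b-5p and miR-217 on each array (horizontal axis). Filled points were well above background, open points lie at the floor (dashed line, -5.51) and were not, and horizontal lines with bars are the group mean and SD (n = 4). In each panel P10 replicates 1 and 2 lie above the 4 adult arrays and P10 replicates 3 and 4 below them.

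Between the ages, none of the measurable members passed the test. In limma over the 238 miRNAs the adult minus P10 difference of miR-216a was 0.61 ± 1.13 on the log2 scale (SE, 4 arrays a group, adjusted p = 0.703), with a 95% interval of -2.01 to 3.23. For miR-216b-5p limma gave -0.47 ± 0.77 (SE, adjusted p = 0.658), with an interval of -2.25 to 1.31. The limma difference of miR-217 was 0.51 ± 0.62 (SE, adjusted p = 0.539), with an interval of -0.92 to 1.95. Each interval holds differences near or above 1 log2 unit in either direction, so these arrays do not show that the ages are alike. Exact two-sided permutation tests of the same means gave p = 0.571, 0.600 and 0.486 in that order, where 4 arrays against 4 allow 0.0286 at the smallest.

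Over all miRNAs tested, the same limma comparison called 113 of 238, or 47.5%, with 65 higher and 48 lower in adult. Among the members 0 of 3 were called. The share over all miRNAs shows that the comparison could make calls at this number of arrays, and the members' SEs, 0.62 to 1.13, reflect the spread of their P10 values. The floor sets 1 P10 value of miR-216a and 2 of each other member, and so part of these differences and SEs. With the floor 1 log2 unit lower, limma gave 0.81 for miR-216a, -0.09 for miR-216b-5p and 1.01 for miR-217. With it 1 log2 unit higher the differences were 0.29, -0.86 and 0.01, and none was called in either setting.

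The order of the arrays was compared under 10 ways of scaling or reading the signal. miR-216a was lowest on P10 replicates 3 and 4 in 10 of 10, and so was miR-217. For miR-216b-5p this held in 8 of 10, the exceptions being cyclic loess and normexp background correction. The upper end of the order was less settled. P10 replicates 1 and 2 both stood above every adult array in 7 of 10 for miR-216a, in 8 of 10 for miR-216b-5p and in 3 of 10 for miR-217. For miR-217 they stood below every adult array in 2 of 10, namely with no scaling and with scaling to the spike-in probes.

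Overall brightness differed between the same arrays. The 75th percentile intensity used for scaling was 388 and 440 on P10 replicates 1 and 2, 989 on replicate 3 and 1690 on replicate 4, against 1284 to 1677 in adult. The 2 dimmest arrays of the series were therefore the 2 with the highest scaled levels of the members. Read without scaling, the brightest miR-216a probe had an intensity of 257 ± 8.14 (SD over the 5 features of the probe) on P10 replicate 1 and 235 ± 5.50 on replicate 2. It was 36.3 ± 2.54 on replicate 3 and 21.5 ± 2.36 on replicate 4, the brightest of the P10 arrays. The adult arrays gave 405 ± 18.1, 266 ± 6.35, 245 ± 12.9 and 239 ± 9.65. Unscaled, the high P10 pair was thus level with adult replicates 2 to 4 rather than above them, while the low pair stayed far below every adult array.

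The unscaled miR-216b-5p probe read 69.1, 74.2, 15.1 and 3.59 over the P10 arrays, and 84.7, 57.3, 59.7 and 55.6 over the adult arrays. Here too the high P10 pair was within the adult range. The miR-217 probe read 47.1, 43.6, 5.86 and 0.989 in P10, and 133, 99.3, 81.4 and 91.5 in adult, where every adult array was above every P10 array. Without scaling, limma called miR-217 higher in adult by 1.59 ± 0.34 (SE, adjusted p = 0.0156), and with spike-in scaling by 1.73 ± 0.37 (SE, adjusted p = 0.0140). Both exact two-sided permutation tests gave the smallest p that 4 arrays against 4 allow, 0.0286.

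Those settings moved the whole table as well. The median difference over all 238 miRNAs was 0.94 without scaling and 1.03 with spike-in scaling, against -0.01 in the scaled data, so the shift of miR-217 has to be read relative to that of the median miRNA. Of all miRNAs tested, 31.5% were called without scaling and 28.6% with spike-in scaling, and 1 of the 3 members was called in each. The spike-in probes were not dimmer on P10 replicates 1 and 2, at geometric mean intensities of 8813 and 9346 against 7723 to 9382 over all 8 arrays.

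**Figure D2:**
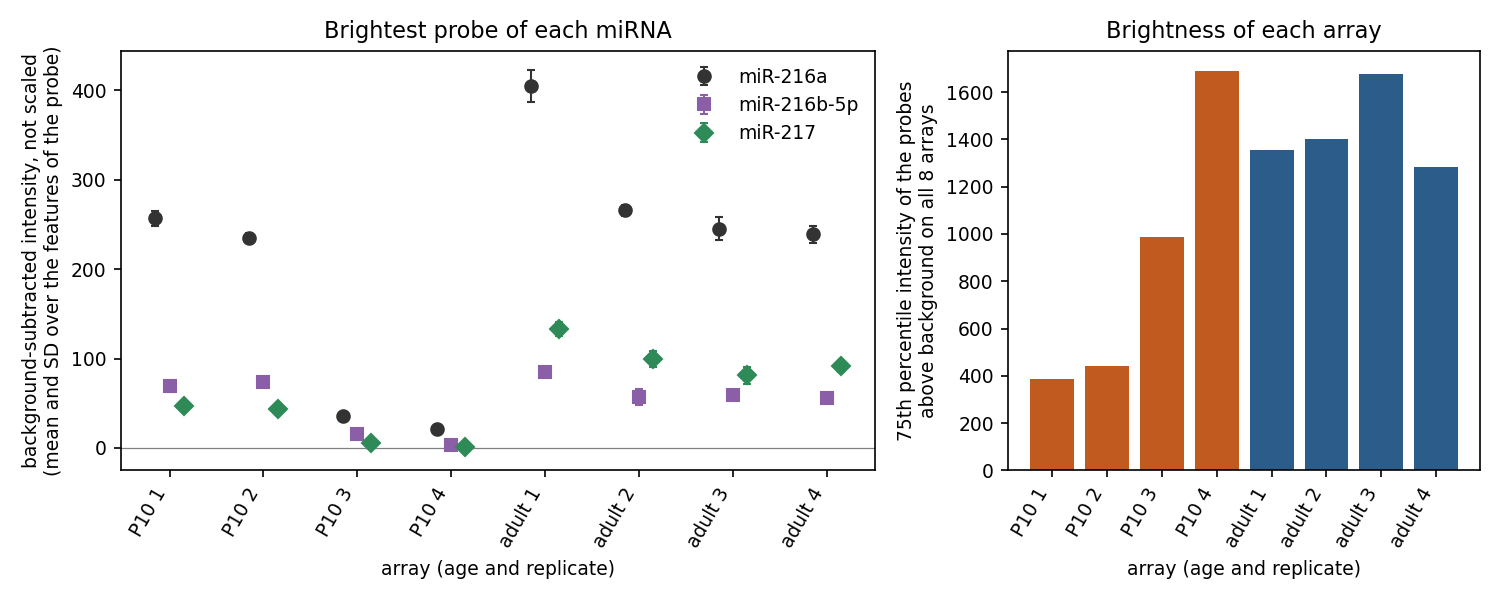
Left, unscaled background-subtracted intensity of the brightest probe of miR-216a, miR-216b-5p and miR-217 by array (mean and SD over the features of the probe). Right, the 75th percentile intensity used for scaling, by array, where the 2 dimmest arrays (388 and 440) are P10 replicates 1 and 2, while the members are lowest on P10 replicates 3 and 4.

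A comparison with the adult arrays that kept P10 replicates 3 and 4 alone was made because replicates 1 and 2 were the dimmest arrays. These 2 arrays are also those on which the members were lowest. The adult arrays were higher by 2.80 for miR-216a, 1.02 for miR-216b-5p and 1.67 for miR-217 on the floored log2 scale. Because miR-216b-5p and miR-217 were at the floor on both P10 arrays kept, and miR-216a on replicate 4, the floor sets these sizes and their spread, and no test of them is given. limma passed its threshold for 52.5% of all miRNAs here and for 3 of 3 members, a count that the floor also sets and from which nothing is read. Leaving out P10 replicate 4 alone turned miR-216a to -0.24 in limma (adjusted p = 0.863), and leaving out P10 replicate 1 or 2 turned miR-216b-5p to 0.039 or 0.013 (limma adjusted p = 0.977 and 0.991). With array weights, which lower the weight of arrays that vary more, limma called miR-216b-5p lower in adult (-1.65, adjusted p = 0.00631), 1 of 3 members, against 75.2% of all miRNAs. The sign of the age difference thus turned with the P10 arrays kept for miR-216a and miR-216b-5p. For miR-217 it stayed positive with each array left out in turn, at 0.13 to 0.95, and turned with array weights (-0.35).

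**Figure D3:**
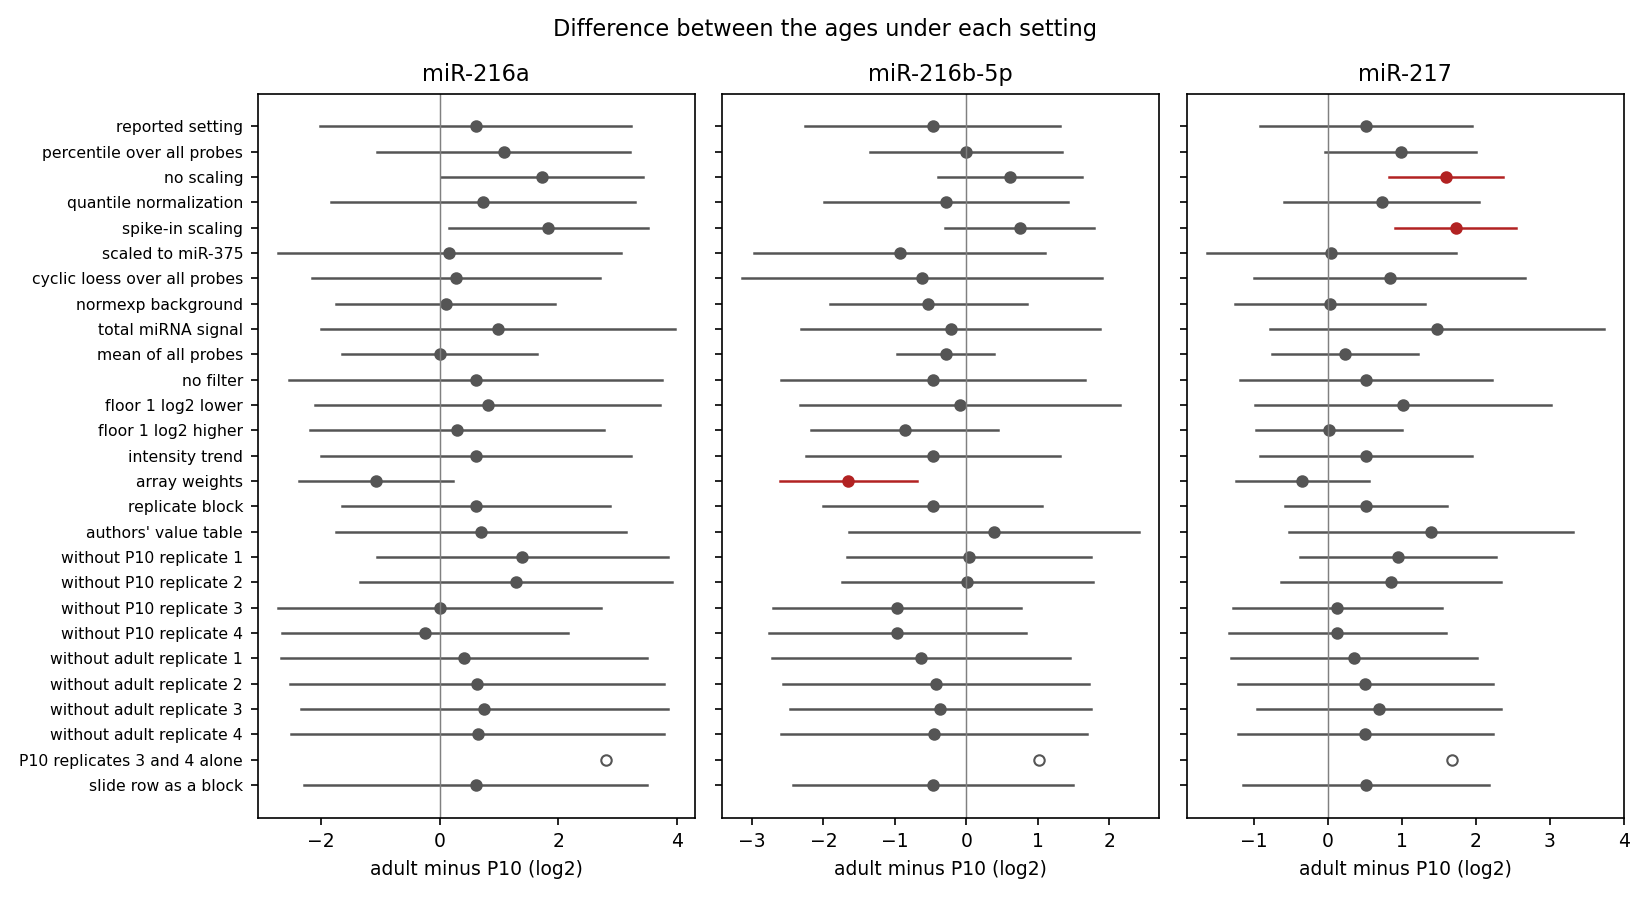
Adult minus P10 difference in log2 signal (horizontal axis) of each measurable member under each setting (rows), with the 95% interval of limma. Red marks an adjusted p under 0.05, and the open point, with P10 replicates 3 and 4 alone, has no interval because the floor sets its spread. Most intervals cross 0 (grey line), as those of the reported setting do for all 3 members.

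miR-375, an abundant islet miRNA and a regulator of insulin secretion, was used as an endocrine reference within each array. Its brightest probe was well above background on 8 of 8 arrays, with intensities of 2884, 3990, 11708 and 18233 over P10 replicates 1 to 4 and of 17729 to 20135 in adult. The log2 signal of miR-216a minus that of miR-375 was -3.49, -4.09 and -8.33 on P10 replicates 1, 2 and 3, whereas adult replicates 1 to 4 gave -5.51, -6.06, -6.36 and -6.34. No value is given for P10 replicate 4, where miR-216a was not well above background. For miR-217 this difference was -5.94 and -6.52 on P10 replicates 1 and 2, against -7.12, -7.48, -7.95 and -7.72 in adult. miR-216b-5p stood at -5.38 and -5.75 on the same P10 arrays and at -7.77 to -8.44 in adult. Relative to miR-375 the high P10 pair lay above all adult arrays for each of the 3 members. The reference itself differed: scaled log2 miR-375 was 2.89, 3.18, 3.57 and 3.43 on P10 replicates 1 to 4, lowest on that same pair, and 3.59 to 3.91 in adult. limma called it higher in adult by 0.47 ± 0.17 (SE, adjusted p = 0.0485), so a gap relative to miR-375 includes the gap in miR-375. Probes of different miRNAs respond differently, so these values rank arrays and give no ratio of molecules or of cells.

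Marker lists of other cell types were set beside the members, each as the sum of the scaled signals of its miRNAs on the linear scale. The acinar list, which holds the members and miR-216a* (6 miRNAs on the array, 3 tested), summed to 1.03, 0.87, 0.15 and 0.13 on P10 replicates 1 to 4 and to 0.30 to 0.53 on the adult arrays. The floor contributes to each of these sums through the 3 opposite arms, and on P10 replicates 3 and 4 it makes up 5 and 6 of the 6 values, so the low sums are bounds. Another acinar miRNA, miR-148a, is not analysed here. The sum for islet endocrine miRNAs ran the other way within P10, at 13.1, 19.6, 27.0 and 27.5 on replicates 1 to 4, and was 46.8 to 52.8 in adult. It is carried mostly by its brightest miRNAs, miR-375 and miR-7a. These, miR-7b, miR-204, miR-153 and miR-183 were lower on P10 replicates 1 and 2 than on 3 and 4. Scaled log2 levels of miR-96 (-0.44, -0.19, -0.40 and -0.28) and miR-182 (-2.67, -2.43, -2.64 and -2.78) did not have this order. Of that list, 7 of 8 tested were higher in adult by limma, among them miR-7a by 1.85 ± 0.37 (log2, SE, adjusted p = 0.00394) and miR-204 by 1.91 ± 0.24 (SE, adjusted p = 0.000371). Over all miRNAs tested, limma called 113 of 238, or 47.5%, with 65 higher and 48 lower in adult. The defining islet markers miR-375, miR-7a and miR-204 were well above background on all 8 arrays, and the endocrine sum was lowest on the 2 P10 arrays where the acinar sum was highest.

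Gut and foregut epithelial miRNAs (miR-192, miR-194 and miR-215) did not follow the members. Their sum was 7.27, 1.11, 13.5 and 2.37 on P10 replicates 1 to 4, high on replicates 1 and 3, and 0.28 to 0.51 in adult, and 3 of 3 were lower in adult by limma. miR-215 was at the floor on all 4 adult arrays. Ductal and general epithelial miRNAs (miR-200a, miR-200b and their relatives) summed to 15.9, 15.8, 13.2 and 10.74 in P10 and 16.2 to 17.3 in adult, with 2 of 5 higher in adult. Within P10 this list had its higher values on the same 2 arrays as the members, over a much narrower range. The share called over all miRNAs tested was 47.5%, and nothing is read from the counts of lists this short.

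Endothelial miRNAs (miR-126 and miR-126*) summed to 2.34, 2.83, 4.43 and 4.71 on P10 replicates 1 to 4, opposite to the members, and to between 2.92 and 3.32 in adult, with 0 of 2 called. The mesenchymal list (miR-143, miR-145 and 3 others) spanned 4.27 to 7.38 in P10 and 5.10 to 7.11 in adult, with 1 of 5 higher and 3 lower. Erythroid miRNAs (miR-451 and miR-144) ranged from 0.15 to 0.25 in P10 and from 0.25 to 0.65 in adult, with 2 of 2 higher. The leukocyte list (miR-142-3p, miR-142-5p, miR-223 and miR-150) ranged from 0.72 to 3.64 in P10, highest on replicate 4, and from 1.24 to 1.58 in adult, with 0 of 4 called. Outside the acinar list, no marker other than miR-142-5p, miR-144, miR-145, miR-184 and miR-215 was at the floor on any array. Against 47.5% called over all miRNAs tested, the counts of calls in these short lists are given without a reading. The part of these other cell types in the members' values was not tested.

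The members were also compared with each other inside each array, over the 6 arrays where both were well above background (P10 replicates 1 and 2 and the 4 adult arrays), a comparison chosen after the data had been seen. Scaling cancels in it. The log2 signal of miR-217 minus that of miR-216a was -2.45 and -2.43 on the P10 arrays, and -1.61, -1.42, -1.59 and -1.38 on adult replicates 1 to 4. Every adult value was above both P10 values, by 0.94 on average, or 1.91-fold. The exact two-sided permutation p was 0.0667, which is the smallest that the 15 splits of 2 against 4 arrays allow. As a share, the miR-217 probe read 18.3% and 18.6% of the miR-216a probe on the P10 arrays and 32.9% to 38.3% on the adult arrays, a share between probes and not between molecules.

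The direction was the same for 5 other probes or signals. The difference between the ages was 1.13 and 1.31 with the second and the third miR-216a probe, 1.09 with the total miRNA signal, 1.17 by the authors' deposited table and 0.42 after normexp background correction. Since the difference is a ratio within an array, it shows that the ratio of the miR-217 and miR-216a signals differed between these P10 and adult arrays. It does not show which signal changed. Both P10 arrays in it are the 2 dim ones, so dimness and age cannot be told apart here.

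For miR-216b-5p minus miR-216a the P10 arrays gave -1.89 and -1.66 and the adult arrays -2.04 to -2.26, a difference of -0.38 (exact two-sided permutation p = 0.0667). It did not hold across probes: against the third miR-216a probe the difference was 0.0011 (exact permutation p = 1.00), and by the authors' deposited table it was 0.14 (exact permutation p = 0.267). The second miR-216a probe (-0.19), normexp background correction (-0.23) and the total miRNA signal (-0.45, exact permutation p = 0.0667) kept the direction of the brightest probes. No difference between the ages in the balance of the 2 miR-216 members was therefore settled.

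**Figure D4:**
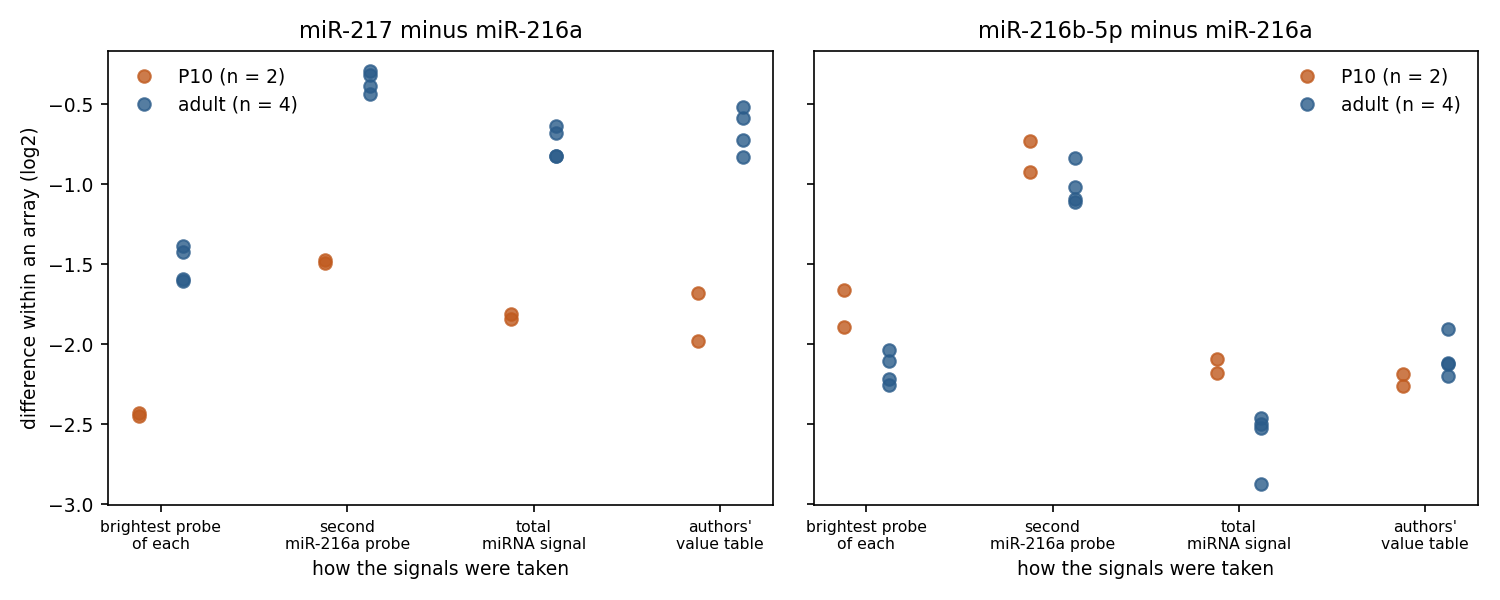
Log2 difference within an array (vertical axis) between miR-217 and miR-216a (left) and between miR-216b-5p and miR-216a (right), by the probe or signal used (horizontal axis), 1 point for each of the 6 arrays with both well above background. On the left the P10 points (-2.45 and -2.43 for the brightest probes) lie below all adult points (-1.61 to -1.38) for every signal shown. On the right the 2 ages lie close together and overlap with the second miR-216a probe and in the authors' value table.

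The probes of each member moved alike across the arrays, as far as they were measurable. miR-216a has 4 probes of 5 features each, of which 1 was well above background on 0 of 8 arrays. Its second brightest probe read 131 and 123 on P10 replicates 1 and 2, 14.3 and 8.57 on replicates 3 and 4, and 180, 124, 106 and 112 on the adult arrays, the same pattern as the brightest. On P10 replicates 3 and 4 that probe was not well above background. The second miR-217 probe read 15.6, 12.7, -2.28 and -2.96 in P10 and 50.2, 31.8, 27.5 and 33.4 in adult before scaling. It was well above background on adult replicates 1, 3 and 4 alone. Its P10 readings are therefore no second measurement of the order of the arrays. Of the 4 miR-216b-5p probes the brightest passed on 6 arrays and the next on adult replicate 1 alone, so this member rests on 1 probe.

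The authors' deposited table holds log2 values of the same arrays. It gave miR-216a as 8.51, 8.22, 4.73 and 3.76 for the P10 arrays and 7.53, 6.90, 6.67 and 6.89 for the adult arrays, in replicate order. For miR-217 that table listed 6.83, 6.24, 3.80 and 2.90 in P10 and 6.71, 6.39, 5.95 and 6.30 in adult. miR-216b-5p had 6.25, 6.04, 3.73 and 2.06 in P10 and 5.42, 4.70, 4.77 and 4.77 in adult. P10 replicates 3 and 4 were the lowest arrays for each member in that table too.

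Over the 8 arrays the scaled log2 values of miR-217 followed those of miR-216a with a Pearson r of 0.978 (Spearman 0.970), and those of miR-216b-5p with 0.911 (Spearman 0.970). These are descriptions without a test, since the arrays fall into separate groups of levels and share their scaling, and 2 of 8 values of each partner are at the floor. Among the 235 other miRNAs tested the median r with miR-216a was 0.06, and 10 lay above 0.9 and 4 below -0.9. The 5 most like miR-216a were miR-30a (r = 0.977), let-7b (0.973), miR-212 (0.948), miR-34a (0.947) and let-7a (0.936), over 8 arrays each.

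These had most of the order of arrays of miR-216a (Spearman 0.881 to 1.00) over a narrower span. miR-30a had scaled log2 levels of 0.91, 0.84, 0.00 and -0.04 on P10 replicates 1 to 4 and 0.43 to 0.53 in adult. miR-34a, the widest of the 5, went from -1.34 on P10 replicate 1 to -2.98 on replicate 4, with -2.42 to -2.17 in adult. The 3 least like it were miR-433* (r = -0.964), miR-433 (-0.944) and miR-126 (-0.939). Both miR-433* and miR-433 were well above background on 6 of 8 arrays, 2 of them P10, and miR-433* was at the floor on P10 replicate 1. Their r thus includes values not measured above background. miR-126, an endothelial miRNA, stood at 1.18, 1.46, 2.11 and 2.18 on P10 replicates 1 to 4 and at 1.5 to 1.68 in adult, so it was lowest where miR-216a was highest. None of these 8 miRNAs passed the limma test between the ages, with adjusted p between 0.459 and 0.941, against 47.5% of all miRNAs tested. They were chosen for following or mirroring miR-216a, which was itself not called, so nothing is read from this count.

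**Figure D5:**
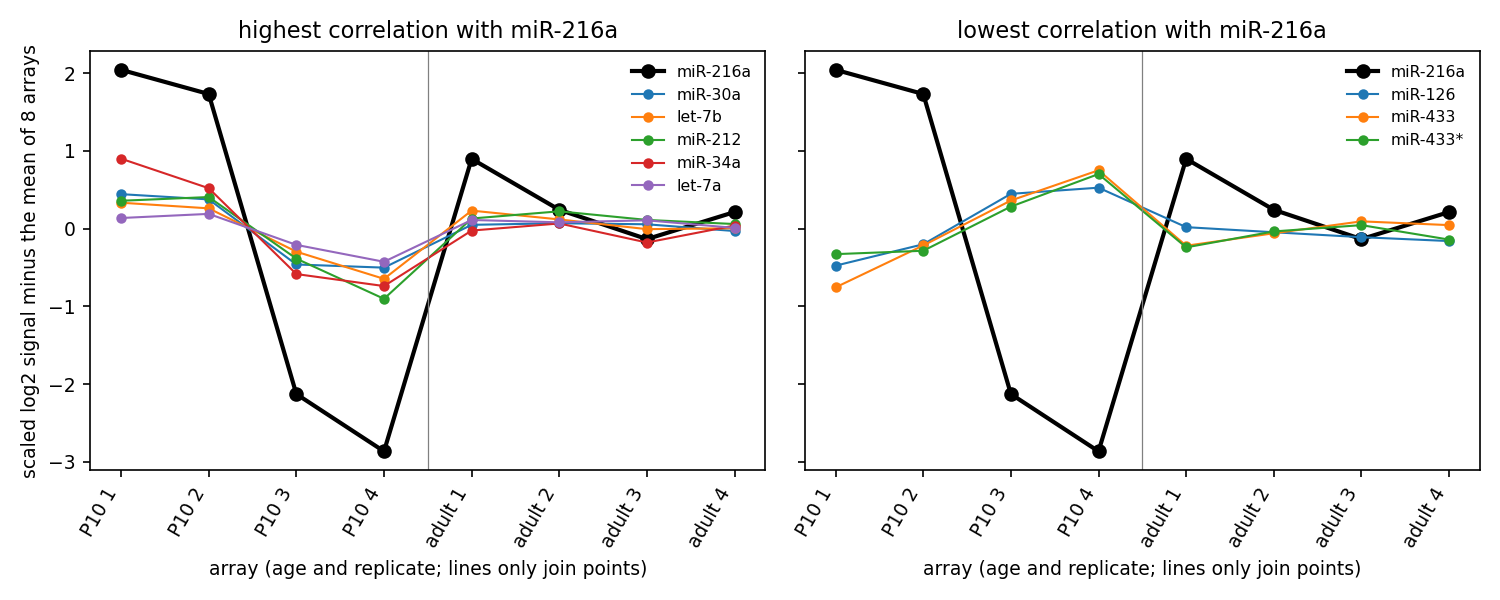
Scaled log2 signal minus its mean over the 8 arrays (vertical axis), by array (horizontal axis), for miR-216a (black) with the 5 miRNAs of highest correlation (left) and the 3 of lowest correlation (right). The other miRNAs largely follow or mirror miR-216a over a narrower range.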

How the data were processed

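Total RNA, extracted with a miRNeasy kit per the labels, was measured on 1-colour Agilent rat miRNA arrays. The deposited scanner files hold background-subtracted intensity per feature and, per the file headers, were written by Agilent Feature Extraction 10.7.3.1. The authors' deposited value table holds 1 log2 value for each of 311 miRNAs and each array, by steps not given in the sources used here. Its columns share 1 set of sorted values (largest gap 0.00787), each with a median of 6.54, and each column ranks miRNAs as that array's total gene signal does (Spearman 1).

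Outlier features (2.34% to 3.65% per array) were left out, 0 features were saturated, and each probe took the mean of its other features. Signals were divided by their array's 75th percentile over the 278 probes that passed the background call on all 8 arrays, a floor of -5.51 (log2) was set, log2 was taken, and each miRNA was represented by its brightest probe. A probe was well above background where most of its features carried that call. limma 3.58.1 in R 4.3.3 compared the ages (lmFit and eBayes, Benjamini-Hochberg over 238 miRNAs, threshold 0.05). Exact permutation tests over all splits were run in R and in Python 3.11.15, and Spearman correlations used scipy 1.17.1. The number of arrays limits the precision.

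The members and all lists were chosen with earlier results of these data known. The named miRNAs were all products of the 3 hairpins, the 5 most and 3 least correlated with miR-216a, and defining markers of each marker list. miR-148a, miR-486 and miR-155, also listed, are not analysed here. Alternatives changed the scaling, background correction, signal, probe, filter and floor, the variance model and array weights, a block for replicate number or slide row, the authors' table, and the arrays left out. The array's design uses another genome build than the RefSeq tables, so no coordinates are given.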

Additional observations from a re-analysis of the deposited data

Results flagged for a closer look

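In 60 groups of 4 arrays (members and marker miRNAs at each age, including unscaled probe intensities of members) 6 had 1 array far from the other 3. At the threshold used, about 1 in 20 independent groups with normal spread would be marked. The groups here share arrays and some hold values tied at the floor, so the count is not weighed against that rate. The brightest miR-216a probe read 405 on adult replicate 1 without scaling, against 239 to 266 on the other adult arrays. The miR-216b-5p probe read 84.7 on the same array, against 55.6 to 59.7. Among other cell types' markers, miR-142-3p, a leukocyte miRNA, had a scaled log2 level of 1.36 on P10 replicate 4, against -2.22 to -1.67 on the other P10 arrays. miR-142-5p stood at -2.07 on that array, with the other P10 arrays at the floor of -5.51. miR-143, a smooth muscle and fibroblast miRNA, was at 2.13 on adult replicate 4, against 2.59 to 2.66 on the other adult arrays. The erythroid miR-451 was at -2.13 on that array, against -0.97 to -0.75.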

How the results depend on the processing

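Over 26 alternatives each, the adult minus P10 difference ranged from -1.07 to 2.80 for miR-216a, from -1.65 to 1.02 for miR-216b-5p and from -0.35 to 1.73 for miR-217. Array weights gave -1.07 for miR-216a and -0.35 for miR-217, both reversed, and -1.65 for miR-216b-5p, called (limma adjusted p = 0.00631), with 179 of 238 miRNAs called. miR-216b-5p also reversed with no scaling (0.61), spike-in scaling (0.74), the authors' value table (0.39) and P10 replicates 3 and 4 alone (1.02). miR-217 was called with no scaling (1.59) and spike-in scaling (1.73), with P10 replicates 3 and 4 at the floor in both. With P10 replicates 3 and 4 alone it was 1.67 and miR-216a 2.80, where the floor sets the sizes and spread of all 3 members. Leaving out 1 array gave -0.24 to 1.39 for miR-216a, -0.97 to 0.039 for miR-216b-5p (0.039 and 0.013 without P10 replicates 1 and 2) and 0.13 to 0.95 for miR-217, and 84 to 138 calls. Keeping only miRNAs above background on all arrays (164) left out every member. The cause of these changes was not tested.

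The count of calls was 75 unscaled, 68 scaled to spike-ins and 37 after cyclic loess, against 113. Of the calls, 65 of 113 were higher in adult as reported, 90 of 124 with the percentile over all probes, 58 of 75 with no scaling, 59 of 68 with spike-in scaling, 27 of 91 scaled to miR-375 and 33 of 80 after normexp. For miR-217 minus miR-216a the other signals gave 0.42 to 1.31 (1.13, 1.31, 0.42, 1.09 and 1.17, as listed in the report), and 0.90 to 0.97 with 1 array left out. The dimmer miR-217 probe was not used, since it was not well above background on the P10 arrays. For miR-216b-5p minus miR-216a the other signals gave -0.19 and 0.0011 (the second and the third miR-216a probe), -0.23 (normexp), -0.45 (total miRNA signal) and 0.14 (authors' value table).

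With the replicate number as a block, miR-216a stayed at 0.61 (limma adjusted p = 0.620), miR-216b-5p at -0.47 (0.568) and miR-217 at 0.51 (0.400), with 95 calls. Arrays of the same number deviated together with correlations of 0.18, -0.09, 0.48 and -0.23, and 1 of 4 P10 arrays correlated best with its own number. So few arrays cannot decide whether the numbers pair the samples, and the labels do not say. Dim signal limits miR-216b-5p and miR-217, which P10 replicates 3 and 4 did not measure above background.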
